A study of Homo sapiens with 12 samples.

Results

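HCT116 cells that received a non-targeting siRNA were compared with HCT116 cells that were transfected without any siRNA. HCT116 is a cell line grown from a colon carcinoma. The comparison used 4 of the 12 RNA-seq libraries of a study on knockdown of NFYA: the siControl group of 2 libraries and the mock group of 2 libraries, chosen by their names. All genes with enough reads were followed, 17730 of the 63677 genes counted. Cells of both groups were seeded at 25000 per well and transfected 24 h later, the siRNAs being carried by the cationic lipid Lipofectamine 2000. The siControl cultures received siGENOME non-targeting siRNA #3 at 62.5 nM, a commercial duplex described in the labels as matching no known mammalian transcript, and the mock cultures received no siRNA (0 nM). The labels do not say whether the mock cultures received the lipid, so the lipid and the duplex cannot be told apart in the differences between these groups. Both were collected 72 h after transfection. The other 8 libraries, siTotal1, siTotal2, siLong1 and siLong2 (2 each), received 1 of 4 siRNAs against NFYA at the same dose and time, and are used here only to place the levels of the control groups. The design gives the 2 libraries of each group as biological duplicates, so the p-values rest on the spread within pairs of libraries, for a single cell line and a single non-targeting sequence.

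A small interfering RNA is a short duplex of which 1 strand is loaded into an Argonaute protein and guides it to complementary messenger RNAs, which are cut. A strand can also pair through its seed, the few bases near its 5′ end, with sites in the 3′ untranslated regions of many other messenger RNAs, much as a microRNA does, and long duplexes can be recognised by sensors of foreign RNA. A non-targeting siRNA is therefore used as a control for the presence of an siRNA. HCT116 cells carry an activating mutation of β-catenin, the effector of Wnt signalling, and a functional p53.

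The siControl libraries held 37529087 and 37358606 gene counts and the mock libraries 49746637 and 41649949. The mitochondrial share of counts was 4.58% and 3.83% in mock and 3.90% and 4.98% in siControl. Epithelial genes of the line were abundant in all 4 libraries, with EPCAM at 243 and 261 CPM (counts per 1e+06 counts of the library, after scaling between libraries) in mock and 279 and 278 in siControl, while the colon markers VIL1 and CEACAM5 had 0 to 5 reads. Among these 4, the mock replicate 1 library stood apart in fibroblast transcripts. It held 158 reads of COL1A2, 97 of COL3A1 and 106 of DCN against 0 to 3 in each of the other 3 libraries. Some NFYA siRNA libraries held them too: DCN stood at 2.10 CPM in mock replicate 1, 2.55 and 1.30 CPM in siTotal2 and 1.10 CPM in siLong2 replicate 2. The remaining NFYA siRNA libraries held DCN at 0 to 0.06 CPM. The summed level of the 9 fibroblast markers was 26.4 to 46.1 CPM in mock and 34.0 to 35.4 CPM in siControl, most of it COL1A1. PTPRC, CD3E and PECAM1, which mark blood and endothelial cells, had 0 reads in all 4. The other 12 of the 15 blood and endothelial markers had 0 to 36 reads in a library, with VWF at 15 to 36 and ITGAM at 12 to 21. In RNA of whole cultures, fewer cells of a type and less RNA per cell cannot be told apart. The part that such transcripts play in other genes was not tested, and the results that touch them are given also without mock replicate 1. The subunits of NF-Y, the CCAAT-binding factor that the study targeted, did not pass the test: NFYA stood at 55.2 and 59.1 CPM in mock and 57.4 and 57.5 CPM in siControl (log2 difference 0.01 ± 0.05, SE), NFYB differed by -0.05 and NFYC by -0.06.

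The non-targeting siRNA was accompanied by differences in a large share of expressed genes, most of them small. By edgeR's quasi-likelihood test at a Benjamini-Hochberg adjusted p under 0.05, 7065 of 17730 genes (39.8%) differed between siControl and mock, 3601 higher (20.3%) and 3464 lower (19.5%). Their median difference was 0.34 in size on the log2 scale, and 2596 of them differed by under 1.2-fold. At least 2-fold differences were seen in 636 genes (3.59%), 292 higher and 344 lower, and at least 4-fold differences in 99, 44 higher and 55 lower. The median over all tested genes was -0.01. Across the 12343 genes with a mean log2 CPM of at least 1, the root mean square log2 difference was 0.341 between the group means, against 0.125 between the mock replicates and 0.124 between the siControl replicates. In 68.5% of tested genes the libraries of the groups did not overlap. Without mock replicate 1, 5676 genes passed the test. Of protein-coding genes 48.3% passed, of long intergenic non-coding RNAs 21.7%, and of processed pseudogenes 6.61%.

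**Figure D1:**
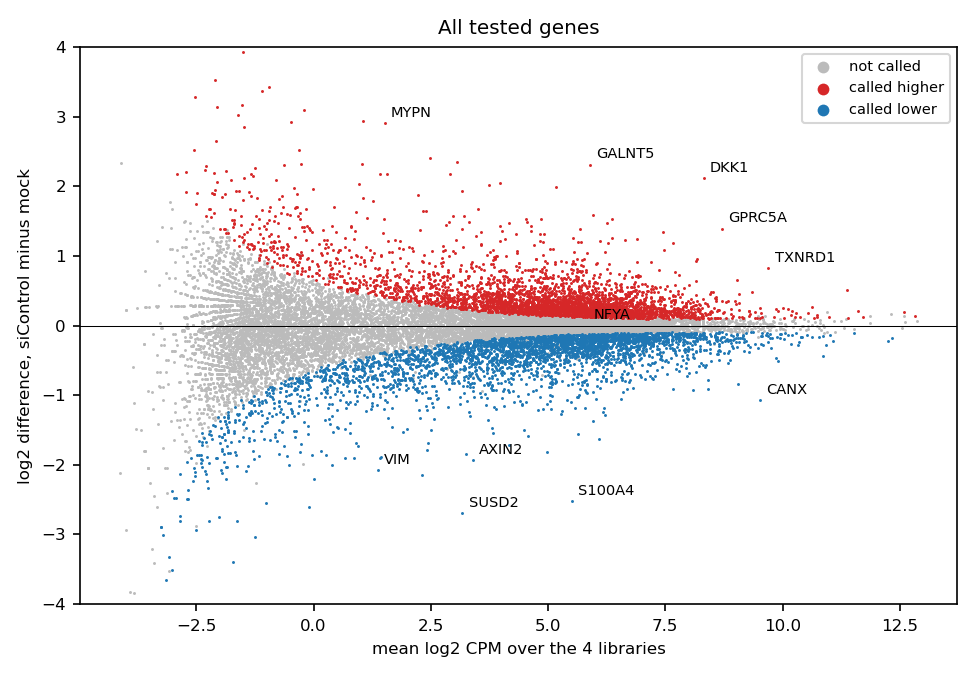
Log2 difference, siControl minus mock, of every tested gene (y axis) against its mean log2 CPM over the 4 libraries (x axis); red points passed the test as higher (3601 genes), blue as lower (3464), and grey did not pass, with 19 genes beyond the axis ends at -4 and 4. DKK1 and S100A4 lie far from 0 at high levels, while NFYA lies at 0.01.

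The largest rises, among genes above a mean log2 CPM of 1 whose groups did not overlap, included DKK1, IL31RA and MYPN. DKK1, a protein-coding gene for a secreted inhibitor of Wnt signalling, stood at 151 and 157 CPM in mock and 659 and 670.3 CPM in siControl and was the most abundant of the 12 largest rises. The siControl libraries held 4.32 times the mock level (log2 2.11 ± 0.05, SE; edgeR adjusted p = 1.42e-24). IL31RA, a subunit of the interleukin-31 receptor, stood at 0.654 and 0.794 CPM in mock and 5.39 and 5.71 CPM in siControl. This was the largest rise, 2.94 ± 0.18 on the log2 scale, from under 1 CPM. MYPN, which encodes the sarcomere protein myopalladin, stood at 0.833 and 1.23 CPM in mock and 7.75 and 7.49 CPM in siControl (log2 2.90 ± 0.17). In each of these 3 genes both siControl libraries lay several-fold above both mock libraries.

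GALNT5, an enzyme that starts mucin-type O-glycosylation, stood at 25.9 and 27.5 CPM in mock and 130.4 and 134 CPM in siControl and rose by 2.31 ± 0.07. STX11, a syntaxin of vesicle fusion, rose by 2.18 from 1.13 and 1.61 CPM. The glucose transporter gene SLC2A3 stood at 6.41 and 9.34 CPM in mock and 29.2 and 35 CPM in siControl, and rose by 2.04 ± 0.18 with unequal replicates. C1orf116 rose by 2.02, from 6.68 and 6.6 CPM to 27.7 and 26.2 CPM. Of the remaining rises, 3 carry uncertainty of counting. KRTAP2-3, a hair keratin-associated protein gene with near-identical relatives, rose by 2.34, and SEC14L1P1, a pseudogene of SEC14L1, rose by 2.18. MCPH1-AS1, an antisense RNA, rose by 2.32, and MCPH1, on the other strand, shares 406 of its exon bases and rose by 0.91.

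The largest falls included SUSD2, S100A4, VIM and TNS4. SUSD2, a membrane protein with sushi domains, stood at 22.1 and 23.5 CPM in mock and 3.71 and 3.34 CPM in siControl, a fall of 2.69 on the log2 scale (SE 0.10; edgeR adjusted p = 2.08e-21). S100A4, a calcium-binding protein associated with motility and mesenchymal cells, stood at 102 and 116 CPM in mock and 17.6 and 20.2 CPM in siControl, so that mock held 5.75 times the siControl level. It was the most abundant of the 12 largest falls, and its log2 difference was -2.52 ± 0.07 with all libraries and -2.61 without mock replicate 1. VIM, the intermediate filament gene vimentin, was low in all cultures, at 6.35 and 4.09 CPM in mock and 1.26 and 1.24 CPM in siControl. Its mock replicates were unequal, and its difference of -2.07 ± 0.18 became -1.70 without mock replicate 1, the control library with fibroblast transcripts. TNS4, a tensin of focal adhesions, stood at 59.9 and 58.4 CPM in mock and 17.6 and 16.1 CPM in siControl and fell by 1.81. ETV1, an ETS-family transcription factor, stood at 30.3 and 35.3 CPM in mock and 9.33 and 10.6 CPM in siControl and fell by 1.72. In both genes the groups lay far apart against the gap between replicates.

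VASH2, a tubulin carboxypeptidase, fell by 2.14, from 10.4 and 10.3 CPM to 2.05 and 2.64 CPM. The ligand gene FGF9 fell by 1.88, from 4.72 and 5.44 CPM to 1.47 and 1.27 CPM. PRF1, which encodes the perforin of cytotoxic lymphocytes, fell by 1.90, from 4.66 and 5.46 CPM to 1.37 and 1.32 CPM, in libraries where PTPRC and CD3E had 0 reads. RAB26, a small GTPase of secretory granules, fell by 1.84, VSNL1, a neuronal calcium sensor, by 1.79, and SESN3, a sestrin, by 1.68. AXIN2, the remaining gene, is described with the Wnt genes.

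**Figure D2:**
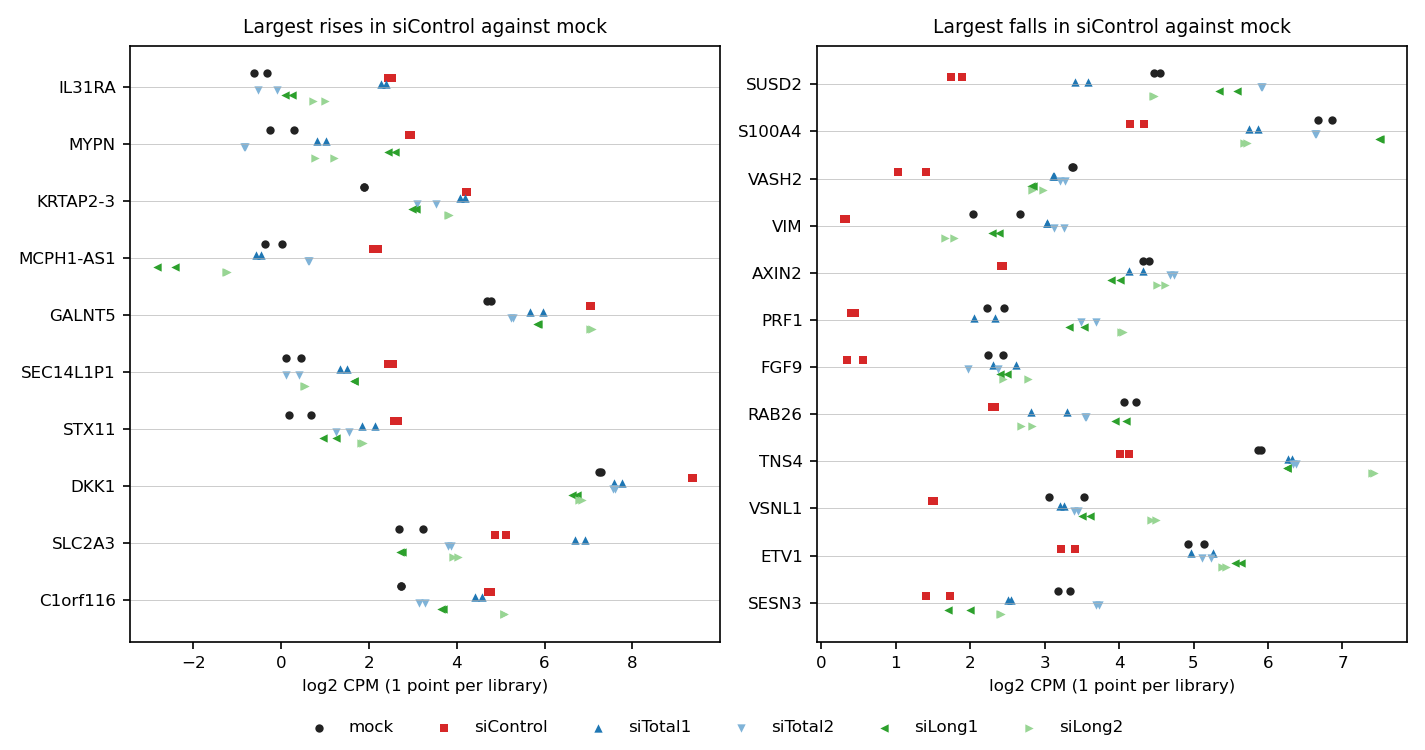
Level in each of the 12 libraries (x axis, log2 CPM, 1 point per library, coloured by group) for 10 of the 12 largest rises (left) and the 12 largest falls (right). The siControl squares of SUSD2, S100A4 and AXIN2 lie below every other library, whereas GALNT5 has mock libraries below all others and siControl beside siLong2.

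The libraries of the 4 NFYA siRNAs, which also carried an siRNA, show which of the control groups lay outside. Among the 7065 genes that differed, both siControl libraries lay outside the range of the other 10 libraries in 2603 genes, 1310 above (9.26% of all tested genes did so) and 1293 below (9.21%), and both mock libraries did so in 990 genes, 456 above (3.87%) and 534 below (4.06%). In 3588 genes neither group did, and in 116 both did. Over all tested genes, above and below together, the shares were 18.5% for siControl and 7.94% for mock. DKK1 spanned 98 to 217 CPM in the 8 NFYA siRNA libraries, around the mock level. In contrast GALNT5 spanned 37.8 to 136 CPM there, with mock below and siControl inside the range. Among the falls, SUSD2 spanned 10.6 to 60.6 CPM, S100A4 51.2 to 182 CPM and TNS4 76.1 to 172 CPM, and siControl lay below the range in 11 of 12, SESN3 being the exception. Among the rises named above, siControl did not lie outside the range of the other 10 libraries for GALNT5, SLC2A3 and C1orf116. Mock did so for KRTAP2-3, GALNT5, STX11 and C1orf116. The rises and falls were chosen for their differences between siControl and mock. The siControl group differed from the mean of the 4 NFYA siRNA groups in 8665 genes (48.9%), and the mock group did so in 7121 (40.2%). These comparisons share the siControl and mock libraries with the main one, so their values only stand beside it.

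The most abundant genes with rises of at least 1.5-fold were TXNRD1, AP3S1, GPRC5A, DKK1 and COL12A1. TXNRD1, the cytosolic thioredoxin reductase, stood at 610.1 and 638 CPM in mock and 1092 and 1113 CPM in siControl, 1.77-fold higher (log2 0.82 ± 0.04). Its 8 NFYA siRNA libraries spanned 494 to 742 CPM, so that siControl lay above the other 10 libraries, as in 9.26% of all tested genes. GPRC5A, an orphan receptor induced by retinoic acid, stood at 245 and 269 CPM in mock and 671 and 679.9 CPM in siControl and rose by 1.39 ± 0.04. COL12A1, a collagen that associates with fibrils, rose by 0.95 to 398 and 407 CPM. AP3S1, a subunit of an adaptor complex of vesicle transport, rose by 0.65, and ATG12 on the other strand, which shares 378 of its exon bases, rose by 0.92, so that their reads could be mixed.

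CANX, the endoplasmic reticulum chaperone calnexin, was the most abundant gene to fall by at least 1.5-fold, at 1026 and 1095 CPM in mock and 495 and 513 CPM in siControl. It fell by 1.07 (SE 0.04), while the 8 NFYA siRNA libraries spanned 979 to 1192 CPM, around the mock level. CYB5B, a mitochondrial cytochrome b5, fell by 0.85, from 678 and 743 CPM to 389 and 401 CPM. EIF2S3, a subunit of the translation initiation factor that carries the initiator tRNA, fell by 0.59, with NFYA siRNA libraries at 362 to 394 CPM. For this gene too siControl lay below all 10 other libraries, as in 9.21% of all tested genes.

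Genes were then followed by pathway, with the number of tested members that rose or fell and their median log2 difference, against 20.3% higher, 19.5% lower and a median of -0.01 over all tested genes. Among lists with at least 7 tested members, the largest shares of higher members were in the proteasome (20 of 26), cholesterol synthesis (16 of 25) and long non-coding RNAs and clock genes (10 of 16 each), and the largest shares of lower members were in targets of the aryl hydrocarbon receptor (6 of 7), nucleotide and folate synthesis (15 of 21), Wnt feedback genes (11 of 17) and DNA replication (23 of 38). For clock genes the share was 5 of 16 without mock replicate 1 or without siControl replicate 2. Most listed genes are protein-coding, a class of which 48.3% passed.

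**Figure D3:**
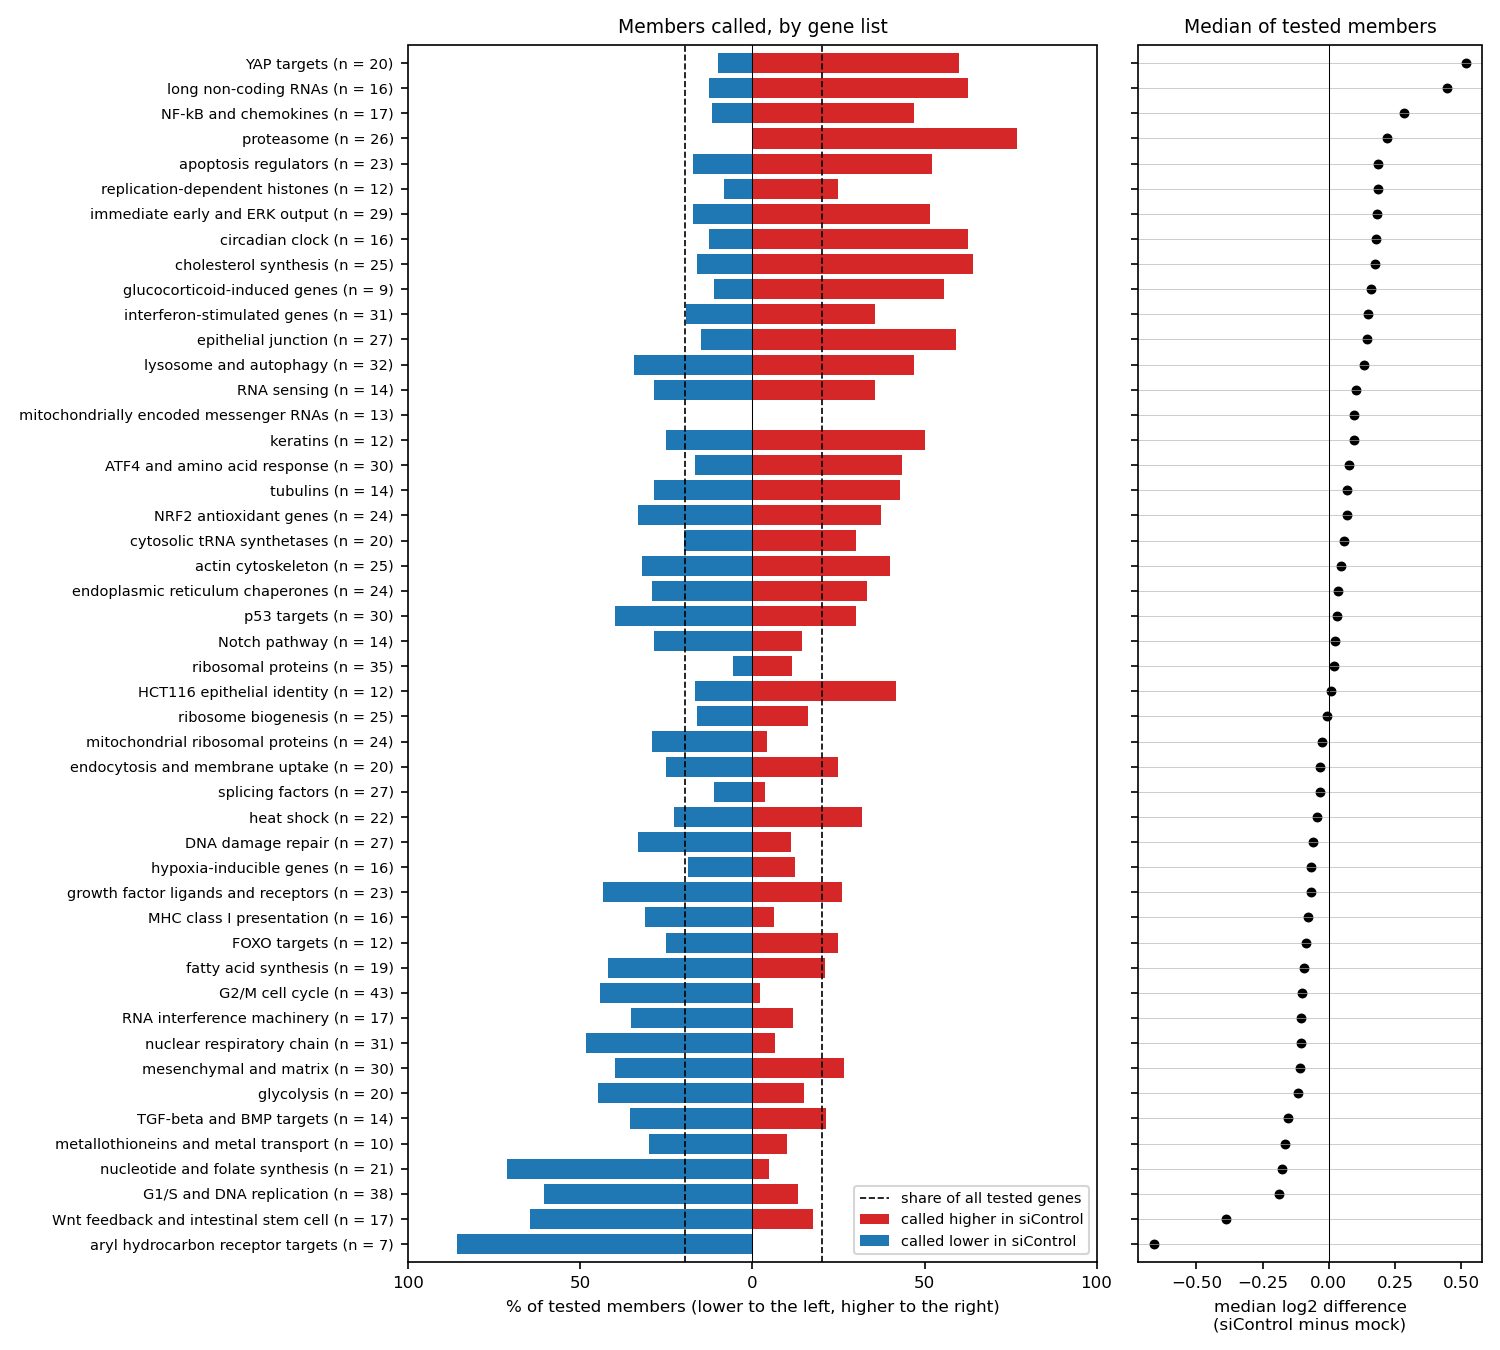
Share of the tested members of each gene list that passed the test as higher (red, to the right) or lower (blue, to the left) in siControl, for lists with at least 7 tested members, with dashed lines at the shares over all tested genes (20.3% and 19.5%), and the median log2 difference of the tested members (right). The proteasome has no lower member, and the mitochondrially encoded messenger RNAs have no member on either side.

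Wnt feedback genes and markers of intestinal stem cells were mostly lower in siControl, with DKK1 moving the other way. Wnt signals stabilise β-catenin, which with TCF factors switches on genes that include its own inhibitors. Of 17 tested members 11 fell and 3 rose, with a median of -0.39. AXIN2, a scaffold of the β-catenin destruction complex and a standard readout of the pathway, stood at 19.9 and 21.1 CPM in mock and 5.31 and 5.44 CPM in siControl. The mock level was 3.81 times the siControl level (log2 -1.93 ± 0.09; edgeR adjusted p = 1.25e-19), and the NFYA siRNA libraries, at 14.9 to 26.6 CPM, lay around mock. RNF43, a ubiquitin ligase that removes Wnt receptors, stood at 108 and 113 CPM in mock and 48 and 48.4 CPM in siControl and fell by 1.19. SOX9, a transcription factor of crypt cells, stood at 106 and 114 CPM in mock and 44 and 49.1 CPM in siControl and fell by 1.24, and SOX4, a related factor, fell by 1.62. For RNF43, SOX9 and SOX4 all siControl libraries lay below all mock libraries and below the 8 NFYA siRNA libraries, as in 9.21% of all tested genes. CD44, a hyaluronan receptor of crypt cells, fell by 0.78 at a high level, from 432 and 465 CPM to 254 and 268 CPM. The remaining falls were smaller, in SP5, EPHB2, NOTUM, TCF7, LRIG1 and ZNRF3 (log2 -0.74 to -0.19). Beside DKK1, the other rises were NKD2 (0.56) and NKD1 (0.44), intracellular inhibitors of the pathway. RNF43 and these smaller changes are named after their values were seen. PROM1, MSI1 and EPHB3 did not pass. LGR5, ASCL2, OLFM4, LEF1, SMOC2, APCDD1 and DKK4 had too few reads for a test.

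In the Notch pathway, where a ligand on 1 cell activates a receptor on its neighbour, 4 of 14 tested members fell and 2 rose (median 0.02). The ligand gene JAG1 stood at 57.1 and 63.2 CPM in mock and 24.2 and 25.4 CPM in siControl and fell by 1.27, LFNG, which glycosylates Notch receptors, fell by 1.17, and the target gene HES1 fell by 0.97, from 12.6 and 13 CPM to 6.54 and 6.49 CPM. The receptor gene NOTCH3 fell by 0.32. The rises were in HEY1, another target gene, at 0.397 and 0.554 CPM in mock and 1.55 and 2.13 CPM in siControl (1.96), and in the ligand gene DLL4 (0.49, edgeR adjusted p = 0.048), both named after their values were seen.

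Targets of the aryl hydrocarbon receptor, a ligand-activated transcription factor that induces enzymes of xenobiotic metabolism, were lower. Of 7 tested members 6 fell and none rose (median -0.66). AHRR, the repressor that the receptor induces, stood at 15.4 and 14.9 CPM in mock and 7.04 and 7.89 CPM in siControl and fell by 1.02 (SE 0.09; edgeR adjusted p = 3.49e-12). CYP1A1, the classical target, stood at 3.97 and 4.19 CPM in mock and 2.05 and 2.88 CPM in siControl and fell by 0.72. NQO1, a quinone reductase that both this receptor and NRF2 induce, fell by 0.90 from 452 and 475 CPM to 239 and 256 CPM. CYP1B1 fell by 0.48, but passed no longer without mock replicate 1 (adjusted p = 0.0504 by edgeR) or siControl replicate 1 (0.0703) or by DESeq2 (adjusted p = 0.0597). ALDH3A1 (-0.66) and the receptor gene AHR (-0.21) are listed beside these and were added after their values were seen. The repressor's promoter holds the letters of a xenobiotic response element, searched as TNGCGTG on both strands from 250 bases before to 50 bases after the start (RefSeq, GRCh38.p14), 32 bases before the start of AHRR, capitals marking the match.
AHRR, chr5:321672-321698, plus strand: ggcgggcggcTCGCGTGccggggtggg
Such a match was found in 2 of the 5 listed promoters available and in 5.51% of 27305 promoters, and describes the letters only.

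NRF2, the factor behind antioxidant genes, showed a split list. Of 24 tested genes 9 rose and 8 fell (median 0.07). TXNRD1 (0.82) and OSGIN1, a growth inhibitor induced by oxidative stress (1.10, from 24 and 23.2 CPM to 51 and 50.5 CPM), rose, whereas NQO1 (-0.90) and the transporter gene ABCC2 (-0.90) fell.

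Targets of YAP, the coactivator that TEAD factors bring to promoters and that responds to cell contact and tension, were mostly higher. Of 20 tested members 12 rose and 2 fell, with a median of 0.52, the highest among the lists plotted. NUAK2, a kinase, stood at 5.75 and 6.11 CPM in mock and 17 and 16.4 CPM in siControl and rose by 1.49 ± 0.10 (edgeR adjusted p = 3.16e-15). CCN1, a secreted matrix protein and a standard target, stood at 47.3 and 43 CPM in mock and 102 and 108 CPM in siControl and rose by 1.22 ± 0.06. AMOTL2, a junction protein that holds YAP, rose by 0.89, from 59.1 and 56.8 CPM to 111 and 103 CPM, and GADD45B rose by 0.80. NUAK2 and GADD45B stood at 5.24 to 9 and 15.4 to 25.1 CPM in the NFYA siRNA libraries. For both, siControl lay above all other libraries, as in 9.26% of all tested genes. For CCN1 and AMOTL2 it did not, since the NFYA siRNA libraries reached 116 and 142 CPM. Smaller rises were seen in LATS2 (0.70), CRIM1 (0.65), CCN2 (0.55), PTPN14 (0.55), ARHGEF17, NT5E, AXL and AJUBA, and the falls were TGFB2 (-0.73) and MYOF (-0.18), all named after their values were seen. ANKRD1, another standard target, differed by 1.06 and did not pass.

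The promoters of these genes are shown for the letters that TEAD factors bind, GGAATG on either strand in the same window of 250 bases before to 50 after the start, with the match in capitals (CATTCC is the match on the complement).
CCN2, chr6:131951526-131951551, minus strand, 169 bases before the start: ttcagacggaGGAATGctgagtgtca
NUAK2, chr1:205321748-205321773, minus strand, 18 bases before the start: ataacaacttGGAATGctgtgcttta
PTPN14, chr1:214551787-214551812, minus strand, 200 bases before the start: tcccgggccgCATTCCtccccgcccc
TGFB2, chr1:218345141-218345166, plus strand, 185 bases before the start: tcagggcgcaCATTCCacctccttcc
The first 3 genes rose and TGFB2 fell, and ANKRD1, which also holds the letters, did not pass. The letters stood in 6 of the 16 promoters available (37.5%) and in 14% of all 27305 promoters of the same length, and no printed match overlapped a match to another motif searched. Among targets of TGF-beta and BMP signals, 3 of 14 rose and 5 fell. The cell cycle inhibitor CDKN2B rose by 0.72, whereas the BMP target ID3 fell by 0.72.

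Subunits of the proteasome, the protease complex that degrades ubiquitin-tagged proteins, rose together by small amounts. Of 26 tested subunits 20 rose and none fell, and the median was 0.22 with a range of 0.04 to 0.50. PSMC4, an ATPase of the regulatory particle, stood at 163 and 161 CPM in mock and 236 and 222 CPM in siControl and rose by 0.50 ± 0.04 (edgeR adjusted p = 4.49e-12). PSMB6, a catalytic subunit of the core, stood at 179 and 174 CPM in mock and 225 and 220.5 CPM in siControl and rose by 0.34 ± 0.04. Both siControl libraries of either gene lay above both mock libraries, but the groups were apart in 7055 of all 7065 called genes. The SE of 0.04 is small against even these differences. PSMC1 rose by 0.30 and PSMA1 by 0.29. PSMC1 shares 4671 of its 6161 annotated exon bases with NRDE2 on the other strand, which rose by 0.18. In 18 of the 26 subunits siControl lay outside the range of the other 10 libraries, and mock did so in none, beside 18.5% and 7.94% of all tested genes. Against the mean of the 4 NFYA siRNA groups, siControl passed the test as higher in 23 of the 26 subunits and mock in 9. Over all 17730 tested genes, siControl did so in 4607 and mock in 3697. PSMA2, PSMA4, PSMA6, PSMA7, PSMB2 and PSME3 did not pass.

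Genes of DNA replication and of nucleotide supply were lower by small amounts. Of 38 tested G1/S and replication genes 23 fell and 5 rose (median -0.19). GINS1, a subunit of the replicative helicase, stood at 69.7 and 72.7 CPM in mock and 38.4 and 40 CPM in siControl and fell by 0.86 (SE 0.06; edgeR adjusted p = 4.14e-15). PCNA, the sliding clamp of DNA polymerases, stood at 360.4 and 379 CPM in mock and 246 and 262 CPM in siControl and fell by 0.54. RFC5, a subunit of the clamp loader, fell by 0.47, while RFC3, another subunit of that loader, rose by 0.44, from 59 and 63.5 CPM to 84.1 and 81.7 CPM. The 6 subunits of the MCM helicase ring (MCM2 to MCM7), named after their values were seen, all fell, by 0.22 to 0.40. Of 43 G2/M genes 19 fell and 1 rose (median -0.10): CENPF, a kinetochore protein, fell by 0.37, the phosphatase gene CDC25B by 0.31 and the transcription factor gene FOXM1 by 0.25, and the 1 rise was in KIF2C, a microtubule-depolymerising kinesin (0.39). Repair genes had 9 falls, including FANCC (-0.39) and MSH6 (-0.28), and 3 rises, including XRCC2 (0.34) and RAD51AP1 (0.24), among 27 tested; RAD51AP1 did not pass without mock replicate 1 (edgeR adjusted p = 0.114) or siControl replicate 2 (0.0547). In 37 of the 38 G1/S genes and 40 of the 43 G2/M genes mock passed the test as higher than the mean of the 4 NFYA siRNA groups. The siControl group did so in 22 and 34, with libraries shared between these comparisons. Over all 17730 tested genes, mock did so in 3697 and siControl in 4607.

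Nucleotide and folate synthesis had 15 falls and 1 rise among 21 tested enzymes, with a median of -0.18. TYMS, thymidylate synthase, stood at 340.4 and 352 CPM in mock and 270.2 and 265 CPM in siControl and fell by 0.37. It shares 967 of its 2470 exon bases with ENOSF1 on the other strand, which differed by -0.26 at a mean of 43.2 CPM. CAD, the enzyme that starts pyrimidine synthesis, stood at 289 and 284 CPM in mock and 217 and 227 CPM in siControl and fell by 0.37, SHMT1, which passes a carbon from serine to folate, fell by 0.38, and CTPS2, a CTP synthase, fell by 0.41. In each the groups did not overlap, as in 7055 of all 7065 called genes, and no difference reached 1.5-fold. The rise was in GART (0.12), a purine enzyme named after its value was seen. The E-box CACGTG, bound by MYC and related factors, was found on the read strand (it reads the same on both) in 5 of the 19 promoters available (26.3%) and in 7.43% of all 27305 promoters. All 5 of these genes fell, by 0.17 to 0.35, as did 15 of the 21 listed, and 4 of the matches, in capitals, are shown.
MTHFD1, chr14:64388328-64388353, plus strand, 15 bases before the start: agtccctaagCACGTGggttgggttg
ATIC, chr2:215312003-215312028, plus strand, 46 bases before the start: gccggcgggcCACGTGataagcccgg
PPAT, chr4:56435782-56435807, minus strand, 182 bases before the start: cggagatttcCACGTGcagcaaatac
MTHFD1L, chr6:150866322-150866347, plus strand, 154 bases before the start: cgcccggctcCACGTGcgcagccggc
The other 3 lists searched had the antioxidant response element core TGACNNNGC in 4 of 22 proteasome promoters (13.6% of all promoters), the amino acid response element TGATGNAA in 5 of 26 promoters of the ATF4 list (3.67%) and the sterol regulatory element TCACNCCAC in 1 of 18 promoters of cholesterol synthesis (1.15%). The 1 sterol element match was in SREBF2, the gene for the sterol factor SREBP2, which fell. In the ATF4 list, CHAC1 and SLC7A1 held matches and rose, ASNS and SLC3A2 did not pass, and FGF21 was not tested. These genes are named, and the lists for this search were chosen, after the values were seen.

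**Figure D4:**
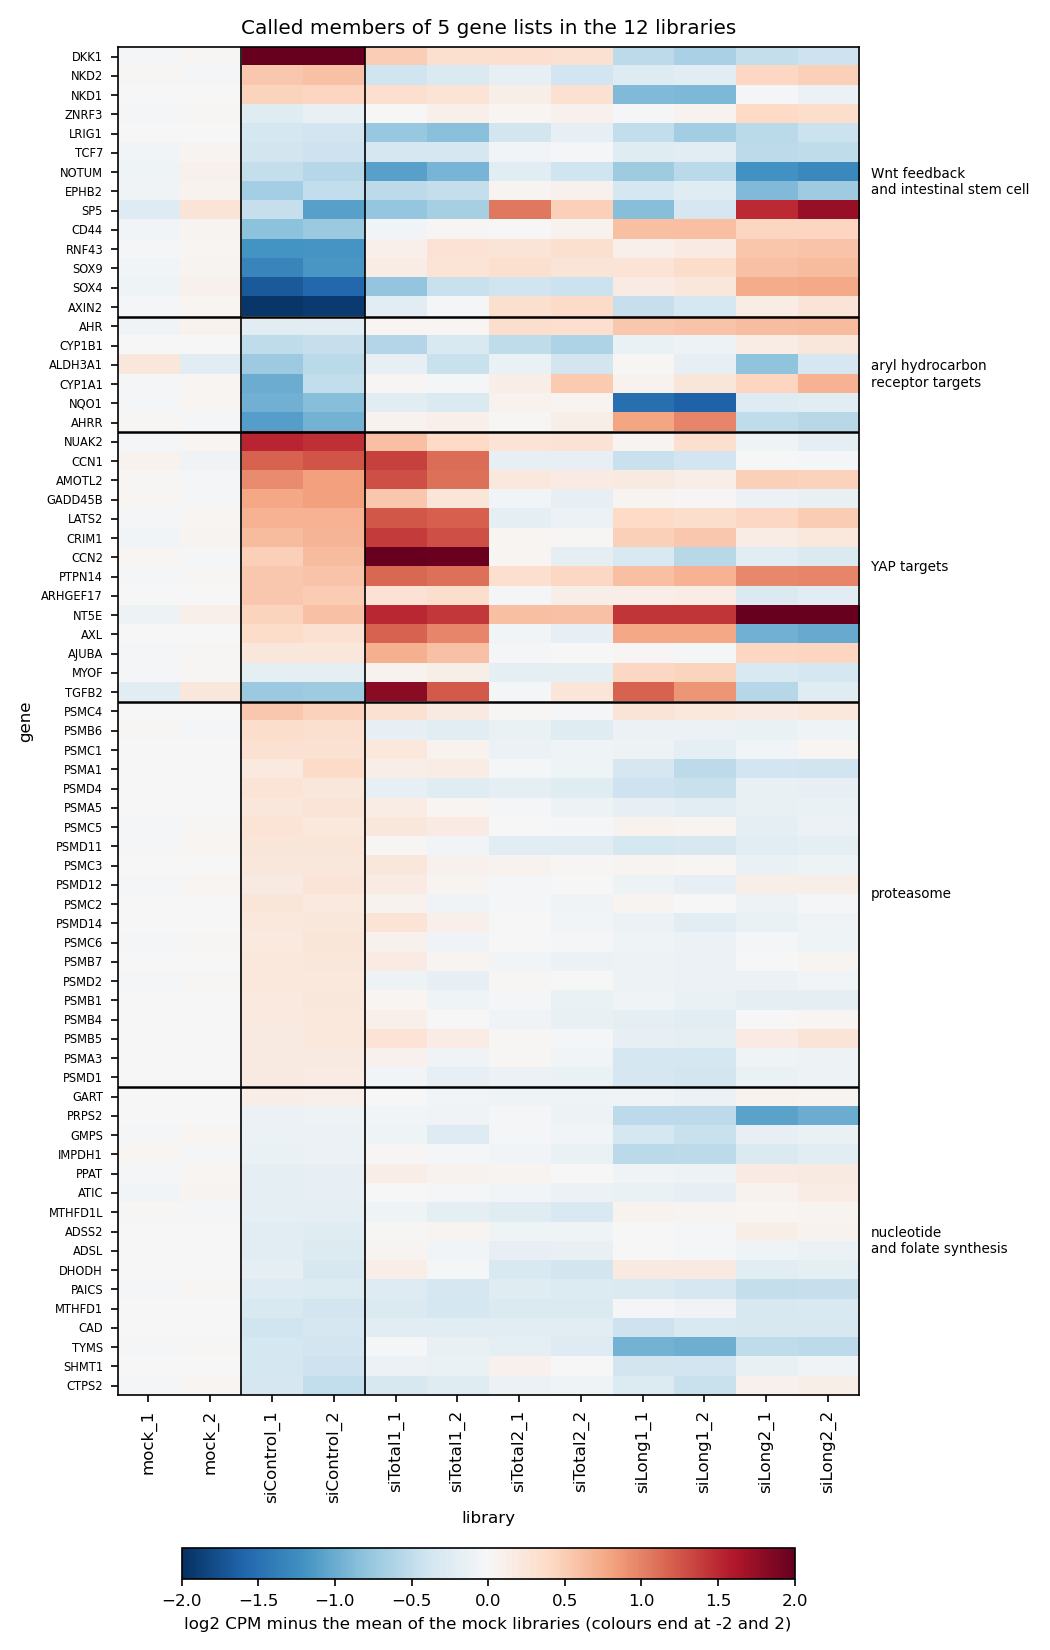
Log2 CPM minus the mean of the mock libraries (colour, ending at -2 and 2) for every member that passed the test in 5 gene lists (rows) in each of the 12 libraries (columns), with lines around the siControl columns. The proteasome rows are red in both siControl columns and in few others, and AXIN2, SOX9 and RNF43 are dark blue in siControl alone.

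Genes of the stress and signalling responses moved in both directions. Of 29 immediate early and ERK-output genes 15 rose and 5 fell (median 0.18). ATF3, a stress-induced transcription factor, stood at 17.8 and 18.5 CPM in mock and 67.7 and 76.2 CPM in siControl, 3.96-fold higher, and DUSP5, a nuclear phosphatase of ERK, stood at 109 and 109 CPM in mock and 276 and 276 CPM in siControl and rose by 1.34. Going the other way, FOS fell by 0.93, from 78.8 and 73.5 CPM to 36.9 and 43.3 CPM, and DUSP6, the cytoplasmic ERK phosphatase, fell by 0.81. The 2 phosphatase genes, both readouts of ERK, thus moved in opposite directions.

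In the ATF4 and amino acid response, which phosphorylation of the initiation factor eIF2 switches on, 13 of 30 tested genes rose and 5 fell (median 0.08). PPP1R15A, the phosphatase subunit that reverses eIF2 phosphorylation, stood at 46.8 and 44.7 CPM in mock and 131 and 123 CPM in siControl and rose by 1.47 ± 0.05. DDIT3, the factor CHOP, rose by 0.97, from 10.7 and 10.1 CPM to 19.6 and 21.2 CPM, and CHAC1, which degrades glutathione, by 0.78. DDIT3 shares 355 of its 1307 exon bases with MARS1 on the other strand, which rose by 0.12 at a much higher level. PHGDH, the first enzyme of serine synthesis, fell by 0.80. Endoplasmic reticulum chaperones had 8 rises and 7 falls among 24, with the sensor gene ERN1 (0.47) and DNAJB9 (0.43) higher and CANX (-1.07) and the disulfide isomerase gene PDIA6 (-0.34) lower. The rises numbered 4 without mock replicate 1 and 5 without siControl replicate 1. Among 22 heat shock genes 7 rose, led by DNAJB4 (0.57), and 5 fell, among them HSPA4L (-0.27), with 3 rises without mock replicate 1 or without siControl replicate 2.

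Targets of p53 were split, 9 of 30 higher and 12 lower (median 0.03). TP53INP1, a p53-induced nuclear protein that takes part in autophagy, stood at 23.3 and 25.5 CPM in mock and 7.7 and 8.94 CPM in siControl and fell by 1.55, and FDXR, ferredoxin reductase, fell by 0.65. PLK3, a stress-activated kinase, rose by 0.77 and SESN2, a sestrin, by 0.68. SESN2 and SESN3, of the same family, thus moved in opposite directions. Among 23 apoptosis regulators 12 rose and 4 fell (median 0.19). The rises included killers and a protector: PMAIP1, the BH3-only protein NOXA, stood at 51 and 52.5 CPM in mock and 111 and 124 CPM in siControl (1.18), BAK1, a pore former of mitochondria, rose by 0.88, and CFLAR, an inhibitor of death receptors, by 0.68. APAF1, the scaffold of the apoptosome, fell by 0.98, from 32.2 and 34.8 CPM to 17.1 and 16.9 CPM.

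Lysosome and autophagy genes also moved both ways, 15 of 32 higher and 11 lower (median 0.13). GABARAPL1, a ubiquitin-like protein of autophagosomes, stood at 30.9 and 32.5 CPM in mock and 78.9 and 86.5 CPM in siControl and rose by 1.38 ± 0.05. The NFYA siRNA libraries held 25.6 to 41 CPM, so that siControl lay above the other 10 libraries, as in 9.26% of all tested genes. MAP1LC3B, of the same family, rose by 0.55, TFE3, a transcription factor for lysosomal genes, by 0.74, and NEU1, a lysosomal sialidase, by 0.71. The 4 named members all rose, although 11 others on the list fell.

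Genes of epithelial cell junctions were mostly higher. Of 27 tested members 16 rose and 4 fell (median 0.14). CGN, the tight junction protein cingulin, stood at 33.8 and 34.5 CPM in mock and 80.5 and 76.2 CPM in siControl and rose by 1.2 ± 0.05 (edgeR adjusted p = 1.05e-19). OCLN, occludin, stood at 22.2 and 22.5 CPM in mock and 48.3 and 47.5 CPM in siControl and rose by 1.10, and TJP1, the scaffold ZO-1, stood at 169 and 177 CPM in mock and 286 and 288 CPM in siControl and rose by 0.73. The claudin gene CLDN4 rose by 0.80, CLDN7 by 0.56 and the cadherin gene CDH1 by 0.28. For CGN and OCLN the NFYA siRNA libraries spanned 32 to 38.5 and 28.1 to 39.3 CPM, below siControl. For both, siControl lay above the other 10 libraries, as in 9.26% of all tested genes. The falls were CLDN2 (under 1 CPM in all 4 libraries), CLDN3 (-0.69), TJP3 (-0.56) and CTNNB1, β-catenin itself (-0.51, at 422 and 431 CPM in mock and 302 and 299 CPM in siControl), named after their values were seen. Keratins had 6 rises and 3 falls among 12 tested: KRT7, of simple ducts, stood at 13.3 and 13.7 CPM in mock and 40.9 and 37.3 CPM in siControl and rose by 1.53, KRT80 rose by 1.17 and KRT15 by 0.96, and KRT23 fell by 0.80.

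Mesenchymal and matrix genes were divided, 8 of 30 higher and 12 lower (median -0.11). LAMB3, a subunit of laminin 332, which anchors epithelia to the basement membrane, stood at 46.9 and 50.1 CPM in mock and 141 and 140.5 CPM in siControl and rose by 1.54. LAMB3 spanned 78 to 159 CPM in the NFYA siRNA libraries, with siControl inside. Mock lay below the other 10 libraries, as in 4.06% of all tested genes. LAMA3, another subunit of laminin 332, rose by 0.88, while ITGB4, a subunit of an integrin receptor of that laminin, fell by 0.76, both being named after their values were seen. ITGA2, a subunit of a collagen receptor, stood at 61.8 and 67.9 CPM in mock and 151 and 152 CPM in siControl and rose by 1.23. VIM (-2.07) and ZEB1, a repressor of epithelial genes (-1.07, from 3.97 and 4.26 CPM to 2.08 and 1.83 CPM), fell. COL1A2 and COL3A1, the collagens that set mock replicate 1 apart, are not on this list. Some members at low levels were unequal in mock, such as SPARC (1.84 CPM in replicate 1 and 0.217 CPM in replicate 2). The more abundant COL6A1 was even (126 and 123 CPM). Without mock replicate 1 the median of the list was -0.20, with LAMB3 at 1.49 and ZEB1 at -1.12.

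In lipid metabolism, genes of cholesterol synthesis, which the SREBP2 factor switches on when sterols are low, were mostly higher by small amounts, 16 of 25 against 4 lower (median 0.17). HMGCS1, the synthase before the rate-limiting step, stood at 115 and 128 CPM in mock and 250.4 and 263 CPM in siControl and rose by 1.08 ± 0.04. The reductase gene TM7SF2 fell by 0.87, and SREBF2, the gene for SREBP2 named above, was also among the 4 lower members. Fatty acid synthesis had 4 rises and 8 falls among 19: ACLY, which makes cytosolic acetyl-CoA, fell by 0.54 from 544 and 563 CPM to 370.1 and 392 CPM and ACACB by 0.54, while LPIN1 (0.70) and ELOVL1 (0.49) rose.

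Glycolysis had 9 falls and 3 rises among 20 (median -0.12), with PGAM1 (-0.62) and PFKL (-0.53) lower and PFKP, another phosphofructokinase (0.35), higher beside SLC2A3. Nuclear genes of the respiratory chain had 15 falls and 2 rises among 31 (median -0.10), including SDHA of complex II (-0.37), NDUFV1 of complex I (-0.33), COX5B of complex IV (-0.28) and ATP5F1A of ATP synthase (-0.27, from 809 and 832 CPM to 682 and 683 CPM). Of the 13 mitochondrially encoded messenger RNAs none passed the test, with a median of 0.10 and a range of -0.04 to 0.27. Their SEs ran from 0.14 to 0.22, against 0.04 to 0.05 for the nuclear genes just named, so changes of that size could have been missed. Mitochondrial ribosomal proteins had 7 falls, led by MRPS34 (-0.38) and MRPL28 (-0.36), and 1 rise among 24. Of 35 cytosolic ribosomal proteins 4 rose and 2 fell, and of 27 splicing factors 1 rose and 3 fell, 17.1% and 14.8% of these lists beside 39.8% of all tested genes. RPL13 (-0.16) and RPL5 (-0.14) were the largest of the ribosomal changes. RPL13 lost its call without mock replicate 2 (edgeR adjusted p = 0.0752) or siControl replicate 2 (0.0637), and RPL5 without mock replicate 2 (0.104) or siControl replicate 1 (0.0966). The rising ribosomal proteins numbered 0 without mock replicate 1 or siControl replicate 1 and 1 without mock replicate 2 or siControl replicate 2, and the falling splicing factors numbered 1 without mock replicate 2.

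Genes that handle or sense small RNAs were of interest because siControl alone of the groups compared had received a duplex. Of 17 RNA interference genes 6 fell and 2 rose (median -0.10). DICER1, which cuts precursors into small RNAs, stood at 96.6 and 97.7 CPM in mock and 136 and 139 CPM in siControl and rose by 0.50 ± 0.05. TNRC6B, a scaffold that Argonaute recruits to silence messenger RNAs, stood at 76.8 and 83.2 CPM in mock and 51.6 and 51.7 CPM in siControl and fell by 0.63, and the Argonaute gene AGO4 fell by 0.47. AGO2, the Argonaute that cuts targets, differed by -0.11 and did not pass. Among 14 RNA-sensing genes 5 rose, including the adaptor gene TICAM1 (0.58) and IRF7 (0.44), and 4 fell, including TLR3, the endosomal receptor for double-stranded RNA (-0.52, at 2.7 and 3.01 CPM in mock and 1.89 and 2.07 CPM in siControl). TLR3 lost its call without mock replicate 2 (edgeR adjusted p = 0.0816) or siControl replicate 1 (0.0892).

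Interferon-stimulated genes moved in both directions. Of 31 tested 11 rose and 6 fell (median 0.15). OASL, a relative of the oligoadenylate synthetases, stood at 2.74 and 3.23 CPM in mock and 6.57 and 5.9 CPM in siControl and rose by 1.07 ± 0.13, ISG20, an exonuclease, stood at 2.2 and 2.17 CPM in mock and 3.99 and 5.12 CPM in siControl and rose by 1.06, and SAMD9 rose by 0.79. IFI6 stood at 6.21 and 6.38 CPM in mock and 3.36 and 3.18 CPM in siControl and fell by 0.94. The IFIT and IFITM families of the list were named after their values were seen. Of the IFIT genes, IFIT2 fell by 0.91 and IFIT5 rose by 0.19, while IFIT1 (-0.22) and IFIT3 (-0.07) did not pass. Of the IFITM genes, IFITM2 stood at 64.4 and 61.6 CPM in mock and 39.5 and 36.3 CPM in siControl and fell by 0.73, IFITM1, under 1 CPM in all 4 libraries, also fell, and IFITM3 (-0.09) did not pass. Genes of NF-kB feedback and chemokines had 8 rises and 2 falls among 17 (median 0.28), with RELB, an NF-kB subunit (0.85, from 10.8 and 10.7 CPM to 19.8 and 18.8 CPM), BIRC3 (0.50) and TNFAIP3 (0.48) higher and the cytokine gene LIF (-0.54) lower. TNFAIP3 lost its call without siControl replicate 1 (edgeR adjusted p = 0.0591). MHC class I presentation had 5 falls, including the peptide-loading chaperone gene TAPBP (-0.52) and the regulator gene NLRC5 (-0.38), and 1 rise, in HLA-F (0.59), among 16 tested. NLRC5 lost its call without siControl replicate 2 (edgeR adjusted p = 0.0540).

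Long non-coding RNAs were mostly higher, 10 of 16 against 2 lower (median 0.44). GAS5, a host of small nucleolar RNAs whose spliced RNA is degraded during translation, stood at 240.2 and 216 CPM in mock and 341 and 369 CPM in siControl and rose by 0.64 ± 0.04, and ZFAS1, another such host, stood at 104 and 105 CPM in mock and 158 and 159.7 CPM in siControl and rose by 0.60. MIR22HG, the host of a microRNA, stood at 5.1 and 3.68 CPM in mock and 11.5 and 13.4 CPM in siControl and rose by 1.49. ZFAS1 shares 249 of its 2243 exon bases with ZNFX1 on the other strand, which rose by 0.34. For GAS5 and ZFAS1, siControl lay above the 197 to 303 and 98.5 to 111 CPM of the NFYA siRNA libraries. In both genes siControl thus lay above the other 10 libraries, as in 9.26% of all tested genes. Of 16 clock genes 10 rose and 2 fell (median 0.18): BHLHE40, a repressor of the clock, stood at 66.3 and 75.7 CPM in mock and 108 and 129 CPM in siControl (0.74), CRY2 rose by 0.44, and DBP, an output factor, fell by 1.19, from 22.1 and 22.5 CPM to 9.91 and 9.62 CPM. The rising clock genes numbered 5 without mock replicate 1 or without siControl replicate 2.

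Growth factor ligands and receptors had 6 rises and 10 falls among 23 tested (median -0.07). Ligands of the epidermal growth factor receptor were divided: HBEGF stood at 10.7 and 10.1 CPM in mock and 19.6 and 22.1 CPM in siControl and rose by 1.00, AREG stood at 21.5 and 22.7 CPM in mock and 38.7 and 38.6 CPM in siControl and rose by 0.81, and BTC fell by 1.11, from 3.13 and 3.66 CPM to 1.6 and 1.54 CPM. EFNA1, a ligand of Eph receptors, rose by 0.78. Genes that glucocorticoids induce had 5 rises and 1 fall among 9, with TSC22D3 at 6.78 and 7.22 CPM in mock and 16.5 and 17.6 CPM in siControl (1.29) and the transcription factor gene CEBPD higher (0.79) and FKBP5, a chaperone of the receptor, lower (-0.70, from 145 and 147 CPM to 88.2 and 92.2 CPM). TSC22D3 and FKBP5, both standard readouts of that receptor, thus lay on opposite sides of mock.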

How the data were processed

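RNA of HCT116 cultures was measured by sequencing of stranded, polyadenylated-RNA libraries, 2 each in the mock and siControl groups and 8 with NFYA siRNAs. Per the submitters' processing notes, the authors used STAR 2.4.0f1, featureCounts and the hg19 build. The deposited values are raw counts per gene, with totals given with the results. The annotation, strand setting and filters were not given in the sources used here, so reads of genes that overlap on opposite strands may be mixed.

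The filter filterByExpr was applied, with a minimum count of 10 and a total of at least 15. Counts were scaled by TMM and fitted with edgeR 4.0.16 (R 4.3.3; limma 3.58.1) as 6 group means over 12 libraries, with 6 residual degrees of freedom and a common biological coefficient of variation of 3.57%. The quasi-likelihood F-test for siControl minus mock was adjusted by the Benjamini-Hochberg method over all 17730 genes, and a gene was called at 0.05. An SE is that of the log2 difference. The script was tested on simulated data. Replicates differed by more than counting noise (chi-square per degree of freedom 5.20 in mock and 5.88 in siControl). Exon overlaps come from GENCODE 29 (GRCh38), matched by identifier, and promoters from RefSeq (GRCh38.p14), whose coordinates are not those of the hg19 build used for the counts.

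The members and the 54 gene lists were chosen with earlier results of these data known. Named genes were the 12 largest rises and 12 largest falls above a mean log2 CPM of 1 with groups apart, the 5 most abundant called each way at 1.5-fold or more, up to 4 called members of each list with at least 3, and the NF-Y subunits; some genes that the rule or lists name are not reported here. EPCAM, AGO2, ANKRD1, members of the IFIT and IFITM families and the genes of printed promoters were added for their roles after their values were seen. Of the list entries, 15 symbols had no identifier. No set test was made. Alternatives changed the scaling, filter, tool (DESeq2 1.42.0), libraries, replicate block and threshold, and the thinning of mock libraries to siControl depth was chosen after seeing the data.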

Additional observations from a re-analysis of the deposited data

How the results depend on the processing

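The 7065 genes called in siControl against mock became 7029 with relative log expression size factors, 7150 with upper-quartile factors, 6804 without a filter, 6892 with a filter of 1 CPM, 5802 with DESeq2, 7160 with only the 4 libraries, 5414 at an adjusted p under 0.01, 6960 with mock libraries thinned, and 5578 to 6004 with 1 library left out. None of the called genes turned direction in these fits. Correlations of deviations by replicate number ran from -0.0851 to 0.0991 over 15 pairs of groups, 0 of them over 0.1. Mock with siControl was the highest of these, and whether the replicate numbers pair the samples was not settled. The replicate block gave 7098 calls, or 8635 with only the 4 libraries, against 7160 there without the block. The siControl group differed from the NFYA siRNA groups in 6876 to 8754 genes and the mock group in 5007 to 7181 with 1 library left out. Of 214 named genes 191 kept their call in all fits and none reversed. Of 624 list counts 588 stayed within 1.5 times the main count. The cause of the others was not tested.

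With the replicate block and only the 4 libraries, 10 RNA interference genes fell, 10 tRNA synthetases rose, 14 glycolysis genes fell, 8 hypoxia genes fell (5 with the block over all groups), 6 metal genes fell, 8 ribosomal proteins rose, 7 ribosome biogenesis genes rose and 5 splicing factors fell. Upper-quartile factors gave 5 falling metal genes, 5 falling splicing factors and 2 rising ribosomal proteins, which were also 2 with relative log expression factors or no filter and 8 with only the 4 libraries. A filter of 1 CPM left 1 rising intestinal gene. With 1 library left out, rising members numbered 4 to 8 for endoplasmic reticulum chaperones, 3 to 6 for heat shock, 0 to 1 for ribosomal proteins, 1 to 3 for histones, 1 for intestinal genes in each fit and 5 to 10 for clock genes, and falling members 1 to 6 for hypoxia genes and 1 to 2 for splicing factors. With 2 libraries a group, a lone library was assumed to vary like the other groups. An effect of the siRNA cannot be told apart from other differences between the cultures, and a single non-targeting sequence was tested.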

Other observations

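Genes of the cytoskeleton and of membrane uptake were also divided. Of 25 actin genes 10 rose and 8 fell in siControl against mock (median 0.05), with LIMA1, which crosslinks filaments, at 167 and 176 CPM in mock and 257 and 257 CPM in siControl (0.58), the tropomyosin gene TPM1 at 0.38 and SRF, the transcription factor of actin genes, at 0.29. Among 14 tubulin and related genes 6 rose, including TUBB2A (0.47) and TUBA4A (0.31), and 4 fell, including STMN1, which sequesters tubulin (-0.40, from 396 and 409 CPM to 303 and 308 CPM). Endocytosis genes had 5 rises and 5 falls among 20. CAVIN1, the coat protein of caveolae, fell by 0.76, from 193 and 196 CPM to 113 and 117 CPM. The NFYA siRNA libraries held 207 to 311 CPM, so that siControl lay below the other 10 libraries, as in 9.21% of all tested genes. The scavenger receptor gene SCARB1 fell by 0.48, and the clathrin light chain gene CLTB rose by 0.57.

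Metal, oxygen and FOXO genes gave small counts. MT1E, a metallothionein, fell by 0.70, from 122 and 120.1 CPM to 77.8 and 71.6 CPM. Of 12 FOXO targets 3 rose, among them IRS2, an adaptor of the insulin receptor (1.06, from 9.18 and 9.68 CPM to 19.2 and 20 CPM), and KLF6 (0.70), and 3 fell, among them TRIB2 (-0.65). Of 16 hypoxia-inducible genes 2 rose and 3 fell, and AK4 (-0.31) was among the falls, which numbered 5 without mock replicate 1, 6 without siControl replicate 2 and 1 without mock replicate 2 or siControl replicate 1. Of 20 tRNA synthetases 6 rose and 4 fell, with LARS1 at -0.32 and SARS1 at 0.23. Ribosome biogenesis had 4 rises, led by RRP12 (0.42), and 4 falls among 25. Histone genes of the replication clusters and their relatives had 3 rises and 1 fall among 12, with 1 rise without siControl replicate 2. Intestinal differentiation genes had 2 rises and 2 falls among 6, with KLF5 at 0.24 and 1 rise without any 1 of the 4 libraries. KLF5 lost its call without mock replicate 1 (edgeR adjusted p = 0.106) or siControl replicate 2 (0.0729). Of the 12 tested epithelial identity genes 5 rose and 2 fell.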
